A study of Mus musculus with 12 samples.

Results

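The Lce3 genes are 6 of the 18505 genes in the expression table of mouse skin, taken as the rows with the symbols Lce3a, Lce3b, Lce3c, Lce3d, Lce3e and Lce3f, and all 6 were present. RNA-seq had been run on the skin of 12 male wild-type BALB/c mice aged 5 to 6 weeks, 4 in each of 3 groups, sampled on day 10 of daily treatment. The back was shaved in all groups, and the control group then received petroleum jelly, with no cover described. The IMQ + NS group received cream with imiquimod (IMQ), an agonist of Toll-like receptor 7 that gives psoriasis-like lesions, for 6 h a day. Saline under a cover of gauze and polyurethane film followed. The IMQ + BZLF group received the same cream followed by Banzhilian formula (BZLF) under the same kind of cover. BZLF is a botanical preparation whose dose in the sequenced samples is not stated in the sources used here. Cream and cover cannot be told apart in the comparisons with control samples. Levels are FPKM, read fragments scaled to transcript length and to sequencing depth, so they are per length and can be compared between genes.

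Late cornified envelope (LCE) proteins are small, cysteine-rich proteins made by keratinocytes late in their differentiation. Transglutaminases cross-link them with loricrin, involucrin and small proline-rich (Sprr) proteins into the cornified envelope, the tough shell of the dead surface cells. In healthy skin the Lce1 genes supply most LCE transcripts, whereas Lce3 genes are known for being induced by barrier damage and in psoriasis, and LCE3 proteins have antibacterial activity.

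The 6 genes lie side by side on mouse chromosome 3 (GRCm38, RefSeq), each with 2 exons. Lce3a occupies 92925287 to 92926230 on the minus strand. The other members follow on the plus strand, with Lce3b at 92932979 to 92934096, Lce3c at 92944486 to 92945730, Lce3d at 92957390 to 92958574, Lce3e at 92967061 to 92968281 and Lce3f at 92992217 to 92993426. The 100 bases before each annotated start are shown because the members moved together in the comparisons below, with the run ATAAAA in capitals.
Lce3a: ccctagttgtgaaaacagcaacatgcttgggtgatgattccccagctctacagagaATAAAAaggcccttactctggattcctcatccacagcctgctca
Lce3b: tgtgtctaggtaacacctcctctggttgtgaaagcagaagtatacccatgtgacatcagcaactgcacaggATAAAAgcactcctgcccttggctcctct
Lce3c: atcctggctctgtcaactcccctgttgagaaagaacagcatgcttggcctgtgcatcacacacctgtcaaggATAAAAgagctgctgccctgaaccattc
Lce3d: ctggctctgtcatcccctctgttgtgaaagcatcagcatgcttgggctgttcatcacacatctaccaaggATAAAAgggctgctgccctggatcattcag
Lce3e: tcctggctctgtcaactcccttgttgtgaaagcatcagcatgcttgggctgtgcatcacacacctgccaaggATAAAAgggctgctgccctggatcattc
Lce3f: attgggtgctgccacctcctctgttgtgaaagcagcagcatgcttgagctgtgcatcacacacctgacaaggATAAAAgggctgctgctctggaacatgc
ATAAAA was the longest run common to the 250 bases before all 6 starts, and it was searched for only after the sequences had been seen. It began 28 to 30 bases before the start in Lce3b, Lce3c, Lce3d, Lce3e and Lce3f and 44 bases before it in Lce3a. Of the 32851 promoters in RefSeq's table (GRCm38.p6), 17.0% held it on either strand within 250 bases and 2.06% had it begin on the gene's strand between 50 and 25 bases before the start. Of 4 motifs listed for the search on both strands, TGANTCA (AP-1), TTCNNNGAA (STAT) and AACNNGTT (grainyhead-like) matched in 0 of the 6 windows, against 6.75%, 7.02% and 3.64% of all promoters. TATAAA matched only in Lce3e, on the opposite strand 243 bases before the start, against 12.4% of all promoters. A match or its absence describes these letters only.

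The members have similar transcripts, which bears on how well they can be told apart by their reads. Of all 150-base stretches of the GENCODE transcript, 100% were unique among the 6 members in Lce3a and in Lce3b, 96.8% in Lce3d, 84.9% in Lce3c, 70.5% in Lce3e and 63.2% in Lce3f. The FPKM values match RefSeq lengths, and Lce3d has 491 bases in GENCODE against 560 in RefSeq, so part of it was not compared. Lce3e and Lce3f share an identical run of 280 bases, so their separate levels are the least certain. Before the starts, over 250 bases, identity was highest between Lce3d and Lce3e at 82.8%, and Lce3e and Lce3f, at 62.3%, were not the closest pair there.

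The samples were close in depth. The FPKM values of the members lay within 2.5e-06 of a whole count in all 72 cases once multiplied by transcript length and depth, which put the total at 38258231 to 40967094 counts per sample. A single count of a member was then worth 0.0394 to 0.0476 FPKM, and intervals based on counts cover counting error only. The tissue label was checked on epidermal markers, with Krt5 and Krt14 together at 944 to 5144 FPKM in all 12 samples. Control replicate 2 stood apart, with hair shaft keratin genes summing to 302 FPKM against 14.7 to 33.1 in the other 3 control samples, and leaving it out changed no call among the Lce3 genes. Skin is a mixture of cells, and in such bulk samples fewer cells of a type and less RNA per cell cannot be told apart.

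To describe the Lce3 genes in skin without IMQ, levels were first read in the control group. They were almost silent there, and Lce3c held most of what was detected. Lce3c was at 0.666, 0.222, 0.499 and 0.548 FPKM in control replicates 1 to 4, from 5 to 15 counts in a sample. Lce3d was at 0.134, 0.0447, 0 and 0.276 FPKM, and the remaining members at 0.126 FPKM or less. Lce3b had 0 counts in all 4 samples, and a count of 0 allows up to 3 counts, or 0.136 FPKM. Only 9 to 19 counts per control sample came from all 6 genes together, so the order of the members below Lce3c could not be resolved at this depth. Lce3c was above Lce3d in 4 of 4 control samples, although their ranges over the samples overlapped.

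**Figure D1:**
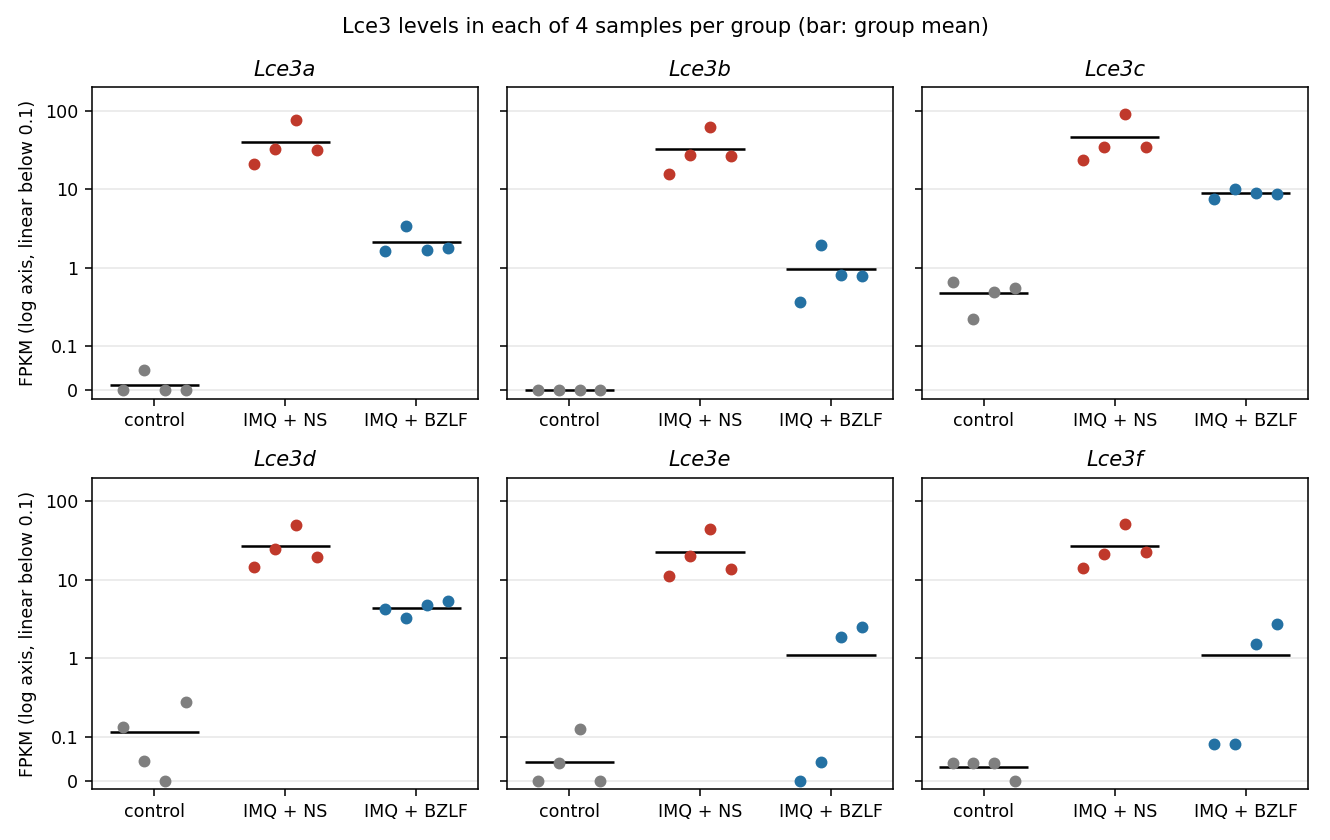
FPKM of each Lce3 gene (vertical axis, logarithmic and linear below 0.1) in the 4 samples per group, in the order of their replicate numbers, with bars at the group means. Every IMQ + NS sample lies above every control and every IMQ + BZLF sample for each gene, and Lce3e and Lce3f split into near 0 and 1.51 to 2.72 FPKM in the IMQ + BZLF group.

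The question for the first comparison was how the model lesion differs from control skin. All 6 Lce3 genes rose in the IMQ + NS group, by log2 fold changes of FPKM + 0.1 between 6.18 and 8.36. These sizes depend on the constant added. They ran from 6.45 in Lce3c to 11.50 in Lce3b with 0.01, and from 4.30 in Lce3e to 5.19 in Lce3a with 1. A gene was called at an adjusted p below 0.05 from limma and an absolute log2 fold change above 1, and 11.4% of the 15288 genes tested were called higher and 11.0% lower. The median log2 fold change was 7.38 over the 6 members, also with Lce3b at its lower bound, and 0.05 over all genes tested. No IMQ + NS sample overlapped a control sample for any member (exact permutation p = 0.0286 for each, the smallest that 4 against 4 samples allow). How many of all genes tested separate in this way was not counted, so this describes the members only.

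Lce3a, at 0, 0.0455, 0 and 0 FPKM in the control samples, reached 21.3, 32.6, 75.8 and 31.6 FPKM in IMQ + NS replicates 1 to 4. Replicate 3 was the highest for this and for every other member. The log2 fold change of Lce3a was 8.36 (standard error, SE, 0.35, limma adjusted p = 5.9e-07). With 1 count in the control group, the ratio of counts was 3504 with an exact 95% counting interval of 628 to 138424.

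Lce3b, which had no count in control skin, was at 15.7, 27.2, 62.8 and 26.3 FPKM in the IMQ + NS samples. Its mean of 33.0 ± 20.5 FPKM (SD, n = 4) was at least 244-fold higher than a floor of 3 counts per library, with an adjusted p of 7.3e-07 from limma. This bound sets the floor in each library alone, so it cannot be ranked against the ratio of counts of Lce3a. Lce3c reached the highest level of the family, at 23.9, 35.1, 90.5 and 34.3 FPKM. Its control level was also the highest, and its ratio of counts of 95.4 and its log2 fold change of 6.18 (SE 0.42, limma adjusted p = 9.9e-06) were the smallest among the 6.

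Lce3d was at 14.6, 24.8, 49.7 and 19.8 FPKM in the IMQ + NS samples, with a log2 fold change of 7.02 (SE 0.47, limma adjusted p = 1.0e-05). Lce3d and Lce3e are also among the genes that the study picked from these same samples as core targets, so their direction is not independent evidence. Lce3e was at 11.2, 20.2, 44.9 and 14.0 FPKM, with a log2 fold change of 7.19 (SE 0.44, limma adjusted p = 6.1e-06). Lce3f was at 14.1, 21.4, 52.1 and 22.4 FPKM, with a log2 fold change of 7.56 (SE 0.36, limma adjusted p = 1.1e-06). With 3 counts in the control group, the ratio of counts for Lce3f was 899 with a counting interval of 307 to 4361.

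The members thus stood within a narrow band of each other in the lesion. Mean levels were 45.9 FPKM for Lce3c, 40.3 for Lce3a, 33.0 for Lce3b, 27.5 for Lce3f, 27.2 for Lce3d and 22.6 for Lce3e, and the ranges of all neighbours in this order overlapped. Within samples the order was steadier. Lce3c was above Lce3a, Lce3a above Lce3b, Lce3b above Lce3f, and Lce3d above Lce3e in 4 of 4 samples, whereas Lce3f was above Lce3d in 2 of 4.

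The second comparison, which shares the IMQ + NS samples with the first, asked how the lesion differed when BZLF followed the cream. All 6 Lce3 genes were lower in the IMQ + BZLF group, against 2.20% of all genes tested called lower and 0.321% called higher. The median log2 fold change was -4.52 over the members and -0.02 over all genes tested. The size of the fall differed within the family, from a mean level of 19.3% of the IMQ + NS mean left in Lce3c and 16.3% in Lce3d to between 2.96% and 5.30% in the other 4 members. These percentages rest in part on single samples. Without IMQ + BZLF replicate 4 they were 2.84% for Lce3e and 2.04% for Lce3f, without IMQ + BZLF replicate 2 1.98% for Lce3b, and without IMQ + NS replicate 3 between 4.24% and 7.49% in these 4 members, 28.6% in Lce3c and 22.5% in Lce3d. No IMQ + BZLF sample overlapped an IMQ + NS sample for any member (exact permutation p = 0.0286 for each), and the share of all genes tested without overlap was again not counted.

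Lce3c was at 7.49, 10.2, 9.08 and 8.79 FPKM in IMQ + BZLF replicates 1 to 4, the highest and the most even values of the family in this group. Its log2 fold change against IMQ + NS was -2.17 (SE 0.34, limma adjusted p = 0.00922). Lce3d was at 4.28, 3.30, 4.84 and 5.32 FPKM, with a log2 fold change of -2.46 (SE 0.33, limma adjusted p = 0.00478). The ranges of Lce3c and Lce3d did not overlap in this group, and Lce3c was above Lce3d in 4 of 4 samples.

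Lce3a was at 1.64, 3.41, 1.71 and 1.78 FPKM, with replicate 2 above the other 3 samples. Its log2 fold change was -4.08 (SE 0.37, limma adjusted p = 0.00108). Lce3b was at 0.367, 1.95, 0.813 and 0.783 FPKM, again highest in replicate 2, with a log2 fold change of -4.96 (SE 0.49, limma adjusted p = 0.00149).

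Lce3e and Lce3f were split within the IMQ + BZLF group. Lce3e was at 0 and 0.0429 FPKM in replicates 1 and 2, from 0 and 1 counts, and at 1.88 and 2.49 FPKM in replicates 3 and 4, from 45 and 62 counts. Lce3f was at 0.0831 and 0.0840 FPKM in replicates 1 and 2, from 2 counts each, and at 1.51 and 2.72 FPKM in replicates 3 and 4, from 37 and 69 counts. The same samples were thus near the control level, or well above it, for both genes. The log2 fold change against IMQ + NS was -5.23 for Lce3e (SE 1.06, limma adjusted p = 0.0228) and -5.29 for Lce3f (SE 0.90, limma adjusted p = 0.0117). With each sample left out in turn, that of Lce3f ranged from -6.01 without IMQ + BZLF replicate 4 to -4.70 without IMQ + BZLF replicate 1, and its call held. The call of Lce3e was lost without IMQ + BZLF replicate 2 (adjusted p = 0.0701 from limma) and without IMQ + NS replicate 2, 3 or 4 (0.0541, 0.0687 and 0.0548), at log2 fold changes that stayed between -6.00 and -4.44 over all samples left out in turn.

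**Figure D2:**
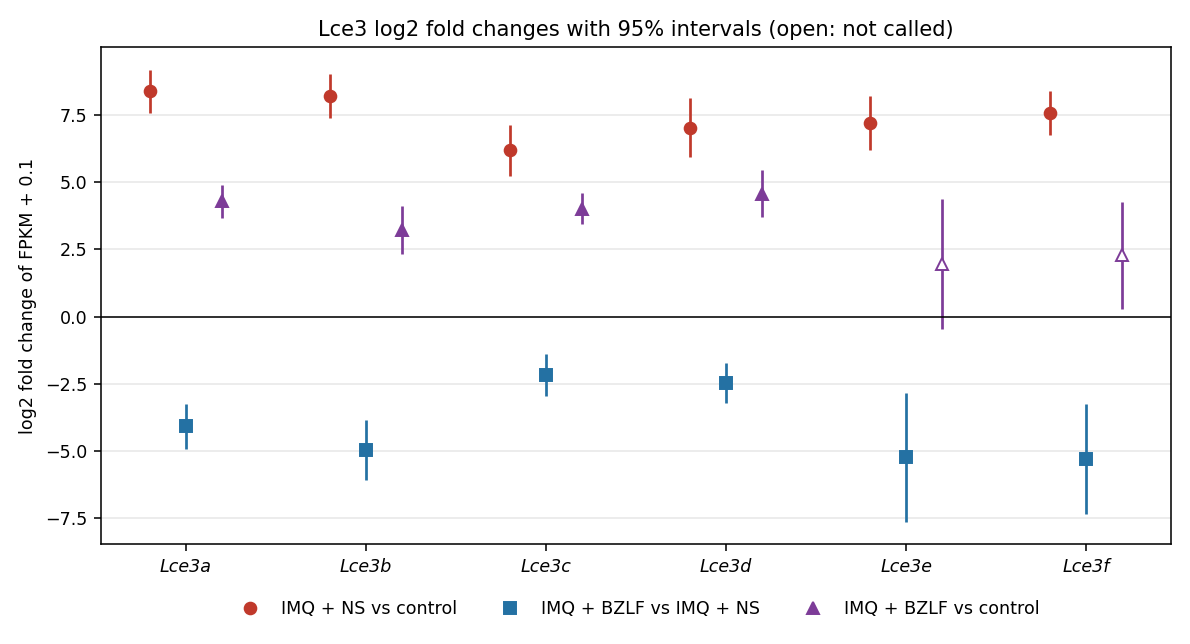
Log2 fold change of FPKM + 0.1 for each Lce3 gene in the 3 comparisons, with 95% intervals from limma on 4 samples a group. Filled symbols passed the test and open symbols did not: all 6 genes were higher in IMQ + NS than in control samples and lower in IMQ + BZLF than in IMQ + NS samples, and the open symbols are Lce3e at 1.96 and Lce3f at 2.28 in IMQ + BZLF against control samples.

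Whether the members fell unequally was tested on their ratios within samples, a test chosen after the values had been seen. Over the 15 pairs of members, the log2 ratio differed between the IMQ + BZLF and the IMQ + NS samples in 9 pairs (exact permutation p = 0.0286 and adjusted p = 0.0476 over the 15 pairs for each). These were Lce3c and Lce3d each against Lce3a, Lce3b, Lce3e and Lce3f, and Lce3a against Lce3b. Each of the 9 is at the smallest p that 4 against 4 samples allow, and the adjusted value rests on all 9 reaching it together. The 15 ratios come from 6 genes and are not independent. Those with Lce3e and Lce3f rest in part on IMQ + BZLF samples with 2 counts or fewer. The log2 ratio of Lce3b to Lce3c went from -0.47 ± 0.11 (SD, n = 4) in IMQ + NS samples to -3.25 ± 0.70 in IMQ + BZLF samples. For Lce3c to Lce3d it was 0.71 ± 0.16 and 1.0 ± 0.41, a difference of 0.29 that did not pass (exact permutation p = 0.20, adjusted p = 0.30, n = 4 per group). For Lce3e to Lce3f it was -0.32 ± 0.25 and -0.27 ± 0.49, a difference of 0.06 (exact permutation p = 0.886, adjusted p = 0.914, n = 4 per group).

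**Figure D3:**
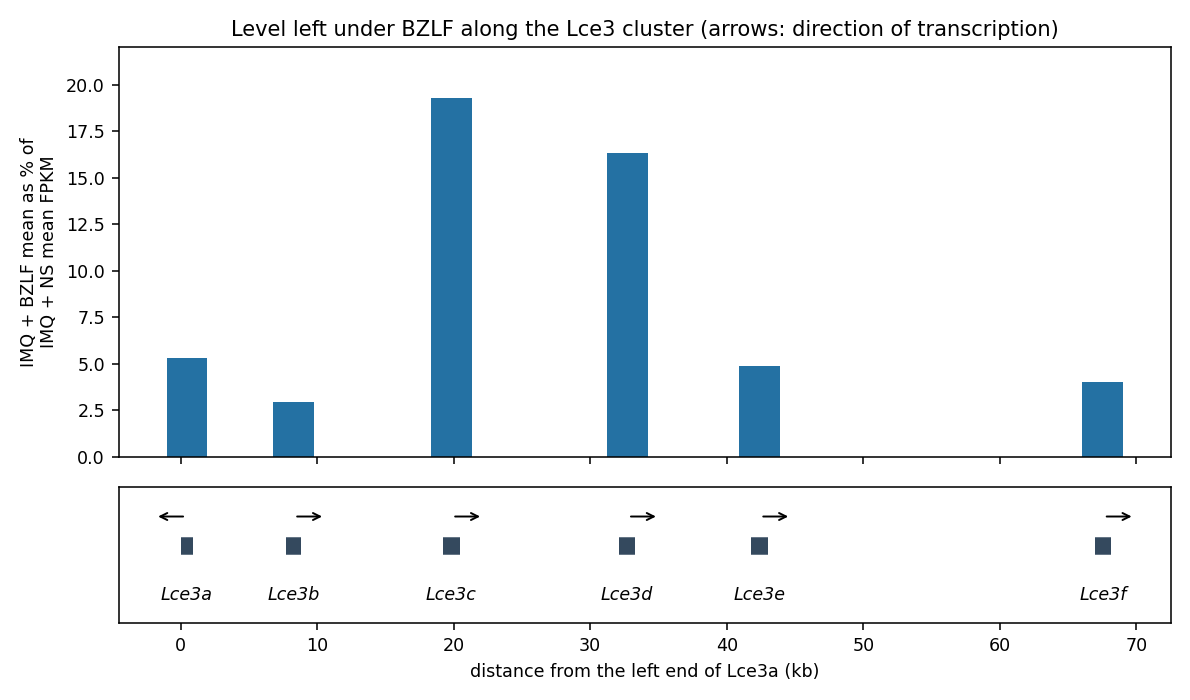
Mean FPKM of each Lce3 gene in IMQ + BZLF samples as a percentage of its mean in IMQ + NS samples (vertical axis), drawn at the gene's place in the cluster (horizontal axis, kb from the left end of Lce3a), with arrows for the direction of transcription. Lce3c and Lce3d, next to each other in the middle of the cluster, kept 19.3% and 16.3%, and the genes on both sides 2.96% to 5.30%.

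The third comparison set IMQ + BZLF samples against control skin, with which the first comparison shares its control samples. Of the 6 members, 4 remained above the control level, against 9.65% of all genes tested called higher and 10.1% called lower. Lce3a (log2 fold change 4.28, SE 0.27, limma adjusted p = 8.8e-06), Lce3b (3.23, 0.39 and 3.4e-04), Lce3c (4.01, 0.26 and 1.0e-05) and Lce3d (4.56, 0.38 and 5.3e-05) passed. Lce3b was at least 7.22-fold higher than the floor of 3 counts per library, and Lce3c was 18.4 times its control mean. For Lce3d, with 10 counts in the control group, the ratio of counts was 39.4 with a counting interval of 21.2 to 82.7, and the ratio of means went from 39.0 to 74.4 without control replicate 4.

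Lce3e and Lce3f did not pass against control samples. For Lce3e the log2 fold change was 1.96 with a 95% interval of -0.45 to 4.37 (adjusted p = 0.147 from limma), and the groups overlapped, since replicates 1 and 2 lay within the control range. For Lce3f it was 2.28 with an interval of 0.28 to 4.27 (adjusted p = 0.0548 from limma), and the lowest IMQ + BZLF samples had 2 counts against 1 in the highest control samples, a gap that lies under the floor of 3 counts. Leaving out IMQ + BZLF replicate 1 or 2 brought Lce3f past the threshold (adjusted p = 0.0278 and 0.0264 from limma).

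The makeup of the family in the 3 groups was described by sample, without a test. The summed Lce3 level had a median of 0.745 FPKM (0.393 to 0.840) in control, 155 FPKM (101 to 376) in IMQ + NS and 19.4 FPKM (13.9 to 21.9) in IMQ + BZLF samples. Lce3c made up 69.2% ± 10.1 of that sum in control samples, 23.2% (21.8 to 24.1%) in IMQ + NS samples and 48.4% ± 6.70 in IMQ + BZLF samples (mean ± SD or range, n = 4 each). By counts in single samples, Lce3c held between 55.6% (exact 95% interval 21.2 to 86.3%) and 78.9% (54.4 to 93.9%) in control samples and between 21.5% (20.1 to 22.9%) and 23.7% (22.8 to 24.6%) in IMQ + NS samples. In IMQ + BZLF samples it held between 39.5% (35.2 to 43.9%) and 54.3% (48.5 to 60.0%). The control shares rest on 9 to 19 counts in a sample, and the widest of their intervals covers all IMQ + BZLF shares. Shares within a sum are also tied, since a higher share of some members lowers that of others. The mean share of Lce3d went from 14.1% in IMQ + NS samples to 24.2% with BZLF. The other 4 members had lower mean shares in IMQ + BZLF samples, at 11.6% against 20.7% for Lce3a, 5.15% against 16.7% for Lce3b, 5.27% against 11.2% for Lce3e and 5.27% against 14.0% for Lce3f, although for Lce3e the samples of these 2 groups overlapped. The shares were nearly the same in all 4 IMQ + NS samples although their summed level varied from 101 to 376 FPKM.

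**Figure D4:**
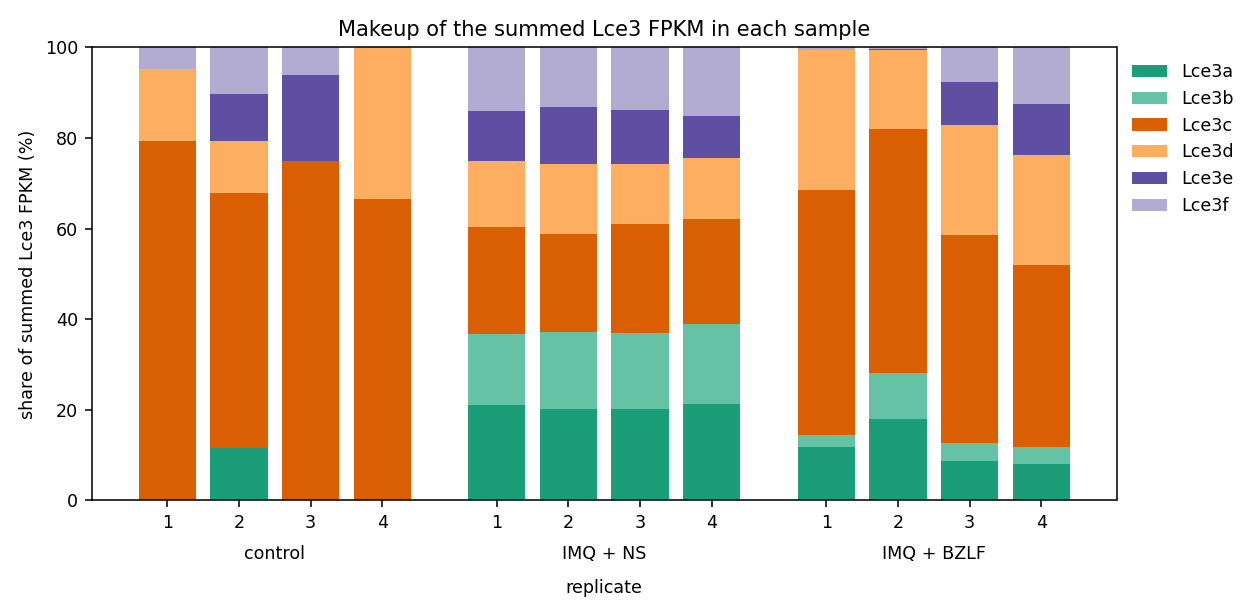
Share of each Lce3 gene in the summed Lce3 FPKM of every sample (vertical axis, percent), with the samples ordered by group and replicate number. Lce3c takes 56.3% to 79.2% in control samples, 21.8% to 24.1% in IMQ + NS samples and 40.2% to 54.0% in IMQ + BZLF samples.

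Against the constitutive Lce1 family the change was one of proportion. Summed Lce3 amounted to 0.0977% ± 0.0142 of summed Lce1 FPKM in control samples, 35.1% ± 16.0 in IMQ + NS samples and 3.05% ± 1.06 in IMQ + BZLF samples (SD, n = 4 each), while summed Lce1 itself ranged from 384 to 887, 383 to 684 and 416 to 1160 FPKM. Per 1000 FPKM of Krt5 and Krt14, the keratins of basal keratinocytes, summed Lce3 was at 0.608 ± 0.226, 49.2 ± 16.8 and 11.2 ± 1.58 FPKM. Krt14 itself was called higher in IMQ + NS than in control samples and lower in IMQ + BZLF than in IMQ + NS samples. Krt5 was called higher in IMQ + NS than in control samples (log2 fold change 1.32, limma adjusted p = 1.8e-04). The ratios of summed Lce3 to Krt5 and Krt14 did not overlap between any 2 of the groups. How many other genes would separate in such a ratio was not counted, so this describes the members only.

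Other cornified envelope genes were listed to set the Lce3 pattern beside them. Of the 15 Lce1 and Lce6a genes, 7 were called higher and 2 lower in IMQ + NS against control samples, and after BZLF 1 rose and 0 fell against IMQ + NS. That gene, Lce1m, ran opposite to Lce3, from 248 ± 96.1 FPKM in control to 9.96 ± 3.28 in IMQ + NS samples, and stood at 50.4 ± 19.0 in the IMQ + BZLF group (SD, n = 4 each). Of the 12 tested Sprr genes, which encode envelope cross-bridging proteins of the same chromosomal region, 12 rose with IMQ and 10 fell with BZLF, with medians of 7.59 and -4.06 beside 7.38 and -4.52 for Lce3. The table held 14 Sprr genes, and those averaging under 0.1 FPKM over all samples were not tested. A gene near 0 in control samples could thus enter through its IMQ + NS level. Sprr1a and Sprr4 were the exceptions after BZLF, with log2 fold changes of 0.21 and 0.29. Among 18 other envelope proteins and transglutaminases, 12 rose with IMQ, such as involucrin (Ivl) and Tgm1. The 2 that fell were loricrin (Lor) and Flg2, a filaggrin relative. After BZLF only Flg2 rose and only Rptn, which encodes repetin, fell. In IMQ + BZLF against control samples 7 Lce1 and Lce6a genes, 8 Sprr genes and 13 other envelope genes were called higher, and 1, 0 and 2 were called lower.

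**Figure D5:**
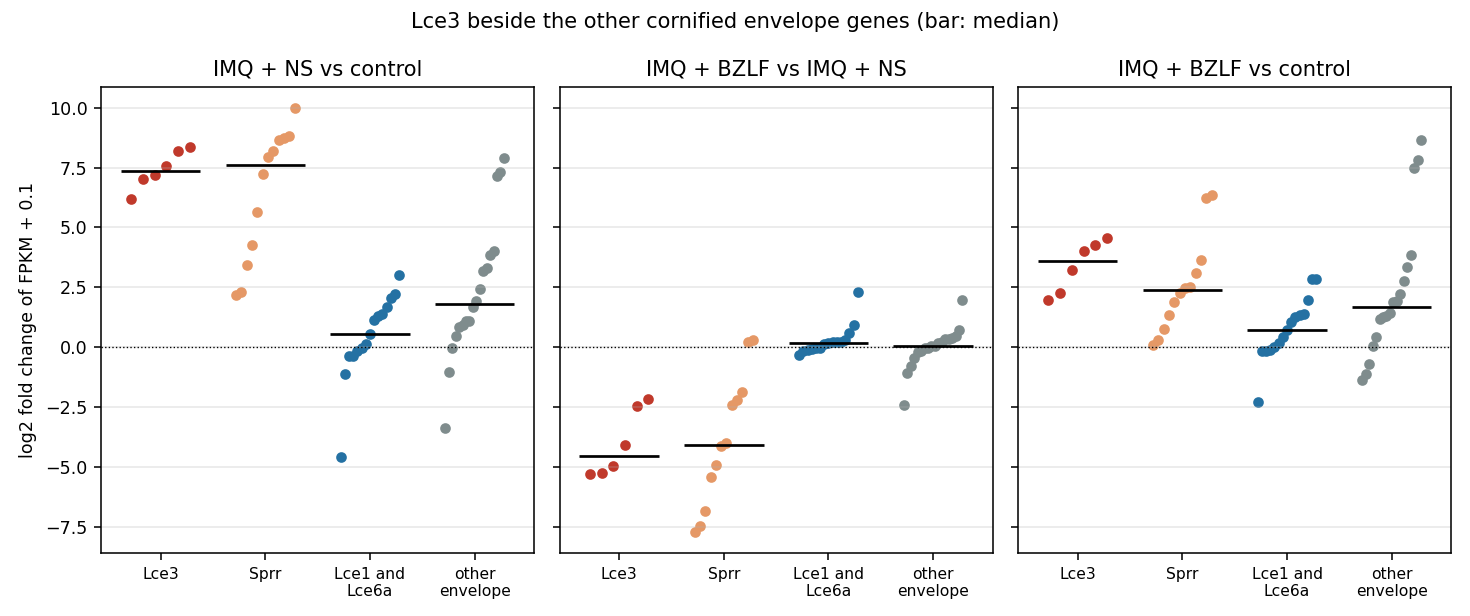
Log2 fold change of FPKM + 0.1 for each tested gene (points, sorted within a family) of the Lce3, Sprr, Lce1 and Lce6a, and other envelope lists in the 3 comparisons, with bars at the medians. The medians in the middle panel were -4.52 for Lce3, -4.06 for Sprr, 0.17 for Lce1 and Lce6a and 0.07 for the other envelope genes.

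The genes with profiles nearest to those of the Lce3 genes over the 12 samples included Sprr genes and the lesional keratins Krt6a, Krt6b and Krt16. Likeness was the root mean square difference of log2(FPKM + 0.1) after centring each gene on its own mean. Lce3a and Lce3b were nearest to Sprr2f (0.60 and 0.51) and then to Krt6b (0.66 and 0.64), a keratin of wounded and psoriatic epidermis. Lce3c was nearest to Defb4 (0.68), a beta-defensin, and to Krt6a (0.72), and Lce3d to Uox (0.79), urate oxidase. Lce3e was nearest to Sprr2i (0.89) and Lce3f to Krt16 (0.62), with Krt16 at 0.92 for Lce3e. In IMQ + BZLF replicates 1 to 4 Krt16 was at 9.35, 8.47, 15.7 and 52.3 FPKM and Sprr2i at 0.417, 0.801, 2.22 and 2.57 FPKM. Both were lower in replicates 1 and 2, as Lce3e and Lce3f were. Krt16 and Sprr2i were picked for likeness over these same samples, so this is no separate support. The step from replicate 2 to replicate 3 was also far larger in Lce3e, from 0.0429 to 1.88 FPKM. Among the members, each was nearest to a neighbour on the chromosome, at 0.54 for Lce3a and Lce3b, 0.57 for Lce3c and Lce3d and 0.40 for Lce3e and Lce3f. The neighbours Lce3b and Lce3c stood at 1.26 and Lce3d and Lce3e at 1.82, so not all neighbours were alike. Lce3e and Lce3f are also the members whose reads are hardest to tell apart.

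Genes that act on keratinocytes upstream were listed too. Of 12 cytokines tested, from 15 in the table, 8 rose with IMQ and 8 fell with BZLF, but these were not all the same genes. Il1b did both, at 5.67 ± 0.569, 28.5 ± 19.2 and 2.07 ± 0.666 FPKM in control, IMQ + NS and then IMQ + BZLF samples (SD, n = 4 each). Il1a rose with IMQ and was not called after BZLF (log2 fold change -0.30, limma adjusted p = 0.248). Tnf was called lower after BZLF and was not called with IMQ. In IMQ + BZLF against control samples 3 cytokines were higher and 3 lower. Of 13 cytokine receptors and antagonists, 1 rose and 1 fell with IMQ, and after BZLF 0 rose and 1 fell, the interleukin-36 receptor antagonist gene Il1f5. Of 17 transcription factors of epidermal differentiation, 8, such as Grhl3 and Ovol1, rose and 1 fell with IMQ, and 0 were called after BZLF. Grhl3 was slightly lower there (log2 fold change -0.46, limma adjusted p = 0.0373), within the fold limit, and Ovol1 was at 0.10 (limma adjusted p = 0.655).

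Neutrophil markers moved in the same direction as the Lce3 genes with IMQ and with BZLF, but not in IMQ + BZLF against control samples. All 8 neutrophil markers rose with IMQ and fell with BZLF, with a summed level of 6.06 to 9.20 FPKM in control, 30.9 to 74.5 in IMQ + NS and 4.29 to 7.62 in IMQ + BZLF samples, and none was at 0 throughout a group. IMQ + NS replicate 3 was the highest sample for this sum, as it was for each Lce3 gene. In IMQ + BZLF against control samples 1 neutrophil marker was called higher and 1 lower. The median log2 fold change there was 0.43 for the neutrophil markers and 3.62 for the Lce3 genes. The 4 lesional keratins, Krt6a, Krt6b, Krt16 and Krt17, all rose with IMQ and 3 fell with BZLF, at sums of 190 to 616, 2344 to 4207 and 1140 to 1392 FPKM. Markers of basal epidermis summed to 1336 to 1804, 3331 to 5418 and 1639 to 2314 FPKM, and those of suprabasal epidermis to 1041 to 2523, 1569 to 3507 and 985 to 2254 FPKM. Of the 5 basal markers 2 rose with IMQ and 1 fell with BZLF, and of the 5 suprabasal markers 2 rose and 1 fell with IMQ and 1, Krt77, rose with BZLF, where the Lce3 genes fell.

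Hair shaft genes did not follow the Lce3 genes. All 10 hair shaft genes rose with IMQ, at sums of 14.7 to 302 FPKM in control, 6922 to 9902 in IMQ + NS and 9287 to 13825 in IMQ + BZLF samples, and 0 were called between the last 2 groups, where the Lce3 genes fell. Summed fibroblast markers ranged from 9866 to 14395, 2501 to 3374 and 3103 to 5910 FPKM, skeletal muscle markers from 3259 to 8134, 616 to 1446 and 1050 to 1448 FPKM, and adipocyte markers from 3798 to 8602, 1870 to 2948 and 2529 to 3005 FPKM. Sebaceous gland markers summed to 280 to 431, 96.0 to 245 and 139 to 236 FPKM, macrophage markers to 647 to 924, 464 to 658 and 305 to 451 FPKM, and the 5 T cell markers found to 11.3 to 17.0, 8.52 to 17.9 and 5.02 to 11.0 FPKM. In IMQ + NS against control samples 6 of 6 skeletal muscle, 4 of 5 fibroblast, 4 of 6 adipocyte and 4 of 6 sebaceous gland markers were called lower, and 0 of 6 macrophage and 0 of 4 tested T cell markers were called. Between IMQ + BZLF and IMQ + NS samples only 1 gene of these 6 lists was called, the macrophage marker Adgre1, which fell. The part of these cells in the Lce3 results was not tested.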

How the data were processed

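Skin RNA of 12 mice was sequenced. The authors deposited 1 FPKM value per gene and sample, normalized for transcript length and depth, with no pooling of replicates. The study's methods name Bowtie2, eXpress and DESeq2, mirVana extraction and a TruSeq Stranded library, whereas the submitters' notes name fastp, HISAT2, HTSeq, R 3.2.0 and the build mm10 and the labels name TRIzol and a VAHTS kit, so how reads shared by similar genes were counted is not settled. Genes whose FPKM averaged 0.1 or more were tested on log2(FPKM + 0.1) in limma 3.58.1 (R 4.3.3) with a variance trend, per pair of groups of 4, with Benjamini-Hochberg adjustment over 15288 genes. The constant understates folds of low genes. On simulated data (4 against 4, 15288 genes) 195 of 200 genes changed by 2 on the log2 scale were recovered and 4 unchanged genes were called. The changed genes were drawn only from those with a mean log2(FPKM + 0.1) above 1 in control samples. The Lce3 genes lie below that, so the recovery does not apply to genes as low as these. Single genes were also compared by two-sided exact permutation tests over 70 assignments. Python 3.11.15 with pandas 2.3.3 was used. Sequences came from RefSeq (promoters, GRCm38.p6), and transcripts were compared in GENCODE of the same build. Coding sequences are not reported here.

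All 6 members were named, each with its 3 nearest genes considered, and from other lists the counts, medians and extremes after BZLF were used. Members and lists were chosen with earlier results of these data known. The labels do not say whether the samples of a group came from separate cages or experiments, so p-values measure the spread between these mice. Alternatives were constants of 0.01 and 1, no filter or a mean of at least 1, median ratio, equal-sum and quantile scaling, 1 fit of all 12 samples, other variance moderation, a replicate block and each sample left out.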

Additional observations from a re-analysis of the deposited data

Results flagged for a closer look

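Single samples stood far from the other 3 of their group in 4 of the 17 sets of 4 member values with any spread. Chance flags about 1 in 20 such sets, a rate that does not hold for sets of 0 and 1 counts, which 2 of the 4 are. Lce3a was at 0.0455 FPKM in control replicate 2, from 1 count, with the other 3 control samples at 0. Lce3f was at 0 FPKM in control replicate 4, with 1 count in each of the other 3. Both differences are of 1 count, and in such sets the gap fills nearly the whole range by construction. Lce3a was at 3.41 FPKM in IMQ + BZLF replicate 2, against 1.64 to 1.78 in the other samples of that group. Lce3c was at 90.5 FPKM in IMQ + NS replicate 3, against 23.9 to 35.1 in the others, and that sample was the highest of its group for all 6 members.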

How the results depend on the processing

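With 1 sample left out at a time, 138 of 144 member fold changes kept their direction and side of the threshold, and under the other alternatives 193 of 198 did, with 0 reversed in either. In IMQ + BZLF against IMQ + NS, Lce3e lost its call with a constant of 0.01 (log2 fold change -6.44, adjusted p = 0.0526 from limma), with no filter on low values (-5.23, 0.0607) and without 4 of the 8 samples (-6.00 to -4.44 over all 8), which left 5 or 6 members called lower. In IMQ + BZLF against control, Lce3f passed with a constant of 0.01 (3.69) and with all 12 samples in one fit (2.28), and ranged from 1.55 to 2.87 with samples left out, while Lce3b fell under the fold limit with a constant of 1 (0.93). A constant of 1 lowered the genes called lower in IMQ + NS against control from 1678 to 1023, those called higher and lower in IMQ + BZLF against IMQ + NS from 49 and 336 to 17 and 188, and those against control from 1475 and 1542 to 979 and 865. Leaving out a sample moved the 49 genes called higher after BZLF to 19 without IMQ + BZLF replicate 2, 78 without IMQ + BZLF replicate 1, and 25 and 29 without IMQ + NS replicates 3 and 4. The cause was not tested. Equal-sum scaling moved the median of all genes in IMQ + BZLF against control to -0.12, and the 6 members kept their calls under the 3 scalings. Same-numbered samples correlated at -0.15 to 0.26, so the numbers were not taken to pair samples, and with a replicate block 6, 6 and 4 members were called as without it, while the genes called higher over all genes tested went from 1740, 49 and 1475 to 1730, 47 and 1457 in the 3 comparisons. The count of 9 pairs of members with different ratios was also 9 with constants of 0.01 and 1, chosen after the data had been seen. Below 3 counts, about 0.12 to 0.14 FPKM, the level of a member in a single sample cannot be told from that of a sample with 0 counts.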
